A study of Arabidopsis thaliana with 3 samples.

Results

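The miRNA profile of wild-type Arabidopsis thaliana (ecotype Col) at 22 days was described from 1 small RNA library, 1 of the 3 libraries sequenced. The seedlings were grown in soil under 16 h light and 8 h dark, without treatment. The other libraries, 1 each, came from seedlings of the same age carrying cdf2, a mutation of the DOF transcription factor gene CDF2, or dcl1-9, a mutant allele of the miRNA-processing enzyme DCL1, and served the study's question of whether CDF2 acts in miRNA biogenesis. With no replicates, no difference between libraries could be tested, and values of cdf2 and dcl1-9 are given only beside those of Col. The Col file listed 328 miRNA names, here called rows, of which 318 named guide strands and 10 were marked with a star for the opposite strand. The rows fell into 187 families by number, and 150 families had reads. Only miRNAs were counted, so the identity of the seedling tissue could not be checked against marker genes. In a whole seedling, fewer cells making a miRNA and fewer copies per cell cannot be told apart.

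In plants, DCL1 cuts a miRNA and its partner strand as a duplex from a folded precursor, the hairpin. The guide strand is loaded into an ARGONAUTE protein, usually AGO1, which favours guides with a 5′ U, and the star strand is mostly degraded. The guide pairs almost completely with its target mRNA, which is then cut or translated less. Many old miRNA families act on transcription factors that set leaf shape, organ boundaries and the timing of development. Families often have several hairpins that give the same mature miRNA.

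The library was dominated by a few short sequences, which are shown first because most of the reads below belong to them. They are written 5′ to 3′ with bases 2 to 8, the seed, in capitals, as RefSeq annotates them on the TAIR10.1 assembly.
miR157c: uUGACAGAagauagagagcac
miR157d: uGACAGAAgauagagagcac
miR156d: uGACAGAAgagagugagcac
miR166a: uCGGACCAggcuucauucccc
miR165a: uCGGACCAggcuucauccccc
miR167b: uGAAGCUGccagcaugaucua
miR158a: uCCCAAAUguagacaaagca
miR168a: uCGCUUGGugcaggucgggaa
miR391: uUCGCAGGagagauagcgcca
miR161.1: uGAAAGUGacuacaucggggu
miR172a: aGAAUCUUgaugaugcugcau
miR157c lies at chr3:6244673-6244693 on the minus strand, miR156d at chr5:3456713-3456732 on the minus strand, miR166a at chr2:19176241-19176261 on the plus strand and miR167b at chr3:23406177-23406197 on the plus strand. The mature miR156d position also falls within an annotated protein-coding gene of the same strand, AT5G10946, while none of the other 3 overlaps one. miR166a differs from miR165a by C17U, counted from the 5′ end with the miR165a base first, which leaves their seeds identical.

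Reads were spread very unevenly over the 328 rows. At least 100000 reads were counted in 21 rows, which held 93.8% of the 8833288 reads summed over all rows and belonged to 6 families. In steps of 10-fold downward, 15 rows had at least 10000 reads, 14 at least 1000, 67 at least 100 and 86 at least 10, while 70 rows had 1 to 9. The median row had 29 reads. Rows with the same mature sequence mostly have nearly equal counts. Whether such rows repeat the same reads or divide them is not given in the sources used here. Each family was represented by its guide row with most reads, which would understate families with many rows if reads were divided. These top members added up to 2669693 reads, 30.2% of the sum over rows, and shares below are of this number unless stated. The authors' tables scale the Col counts to a library total of 14073145 reads, of which the top members were 19.0%. With its misplaced commas ignored, the paper reports fewer reads than this for the wild type. It also gives fewer reads matching the genome than the top members add up to. These differences are not explained in the paper, so shares of the library total are uncertain. Intervals in parentheses are exact 95% Clopper-Pearson intervals. They cover counting error only, and PCR reads without molecular identifiers are not independent molecules. Abundance here means read counts, and how evenly the library preparation captured different sequences was not measured.

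miR157 was the most abundant family, with 648158 reads in miR157c or 24.3% (24.2% to 24.3%) of the family reads. miR156, its close relative, followed with 532299 reads in miR156d or 19.9%. Both target SPL transcription factors, which promote the change from juvenile to adult growth. miR166, which restricts class III HD-ZIP factors such as PHB and REV to the upper side of the leaf, had 493332 reads or 18.5%. miR167, which targets the auxin response factors ARF6 and ARF8, had 405006 reads or 15.2%. These 4 families and miR158 (193012 reads, 7.23%) together held 85.1%. Among the top 5, miR158 was the only family not placed in a target class here, so its reads enter none of the class shares below.

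Next came miR168, which targets AGO1 itself, with 129349 reads or 4.85%, and miR165, the second HD-ZIP regulator, with 76644 reads or 2.87%. miR391 had 38218 reads or 1.43%. miR161 had 31897 reads in miR161.1, and miR172, which targets AP2 and the TOE repressors of flowering, had 31720 reads. The last pair did not differ beyond counting error, at a ratio of 1.01 (0.990 to 1.02). Each of the 8 families ranked above was separated from the next by an interval that excluded equality. These intervals do not cover the choice of row. miR156 stood second through miR156d, and the other rows with its mature sequence had 236707 to 237154 reads, below miR166 and miR167. With all rows summed, miR166 ranked 1, miR157 2 and miR156 3, miR168 passed miR158, and miR172 passed miR391. The first 10 families held 96.6% of the family reads.

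Few families sufficed for nearly all reads. The 3 most abundant families held over 50% of the family reads, 7 held over 90% and 16 held over 99%. Ranks 11 to 20 were taken by miR390 (15454 reads), miR396 (13338), miR164 (10315), miR5026 (10024), miR403 (9351), miR173 (6143), miR159 (3569), miR780 (2708), miR822 (2178) and miR162 (2050). The 130 families below rank 20 held 0.559% together, and 44 of the 150 families with reads had fewer than 10 in their top member. At the lower end of these 20 ranks, miR822 and miR162 were again not separated by counting error (ratio 1.06, with an interval that includes 1).

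**Figure D1:**
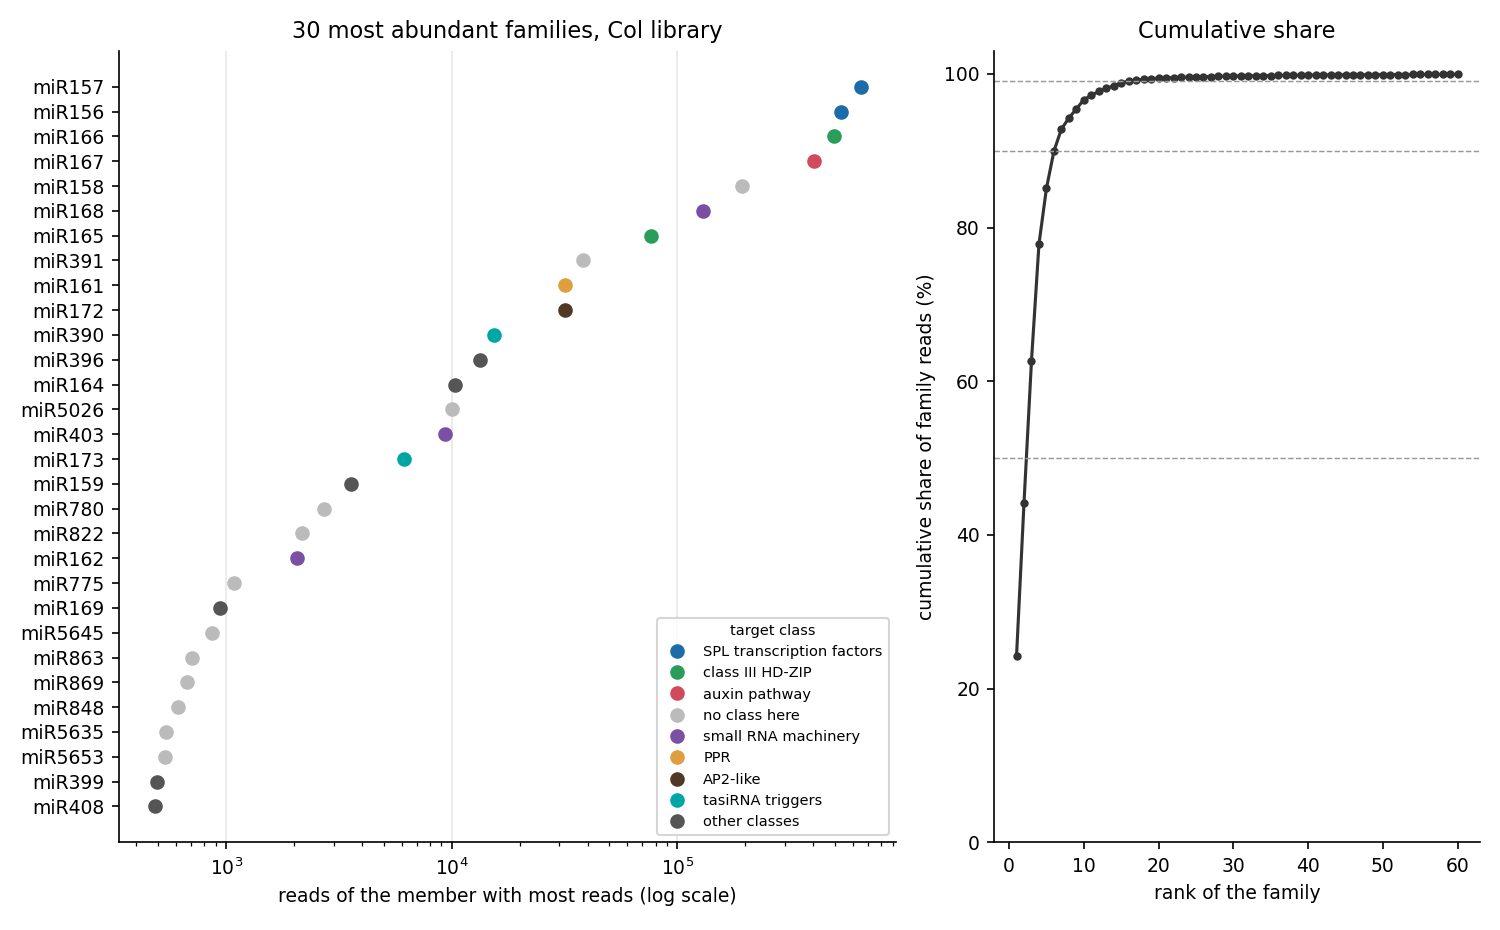
Reads of the top member of the 30 most abundant families in the Col library on a log axis, coloured by target class (left), and the cumulative share of family reads in percent against family rank, with dashed lines at 50%, 90% and 99% (right). miR157, miR156, miR166 and miR167 lie at 405006 reads or above, and the curve passes 99% at the 16th family.

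The same 10 families led the cdf2 library, and 8 of the 10 were among the first 10 of dcl1-9, again without replicates. Their order differed in both. In cdf2, miR157 was again first with 24.5% of the family reads, but miR166 was second with 17.2% and miR156 followed with 16.5%, while miR172 ranked 8 and miR391 ranked 10. In dcl1-9, miR166 was first at 45.4%, miR168 was second at 21.5%, and miR157 held 9.89%. miR391, eighth in Col with 38218 reads, had 2 reads in dcl1-9, where all rows summed to 378685 reads against 8833288 in Col and 5248526 in cdf2.

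Sorted by what their targets do, 36 families fell into 17 target classes, and these families held 90.4% of the family reads. SPL regulators (miR156, miR157) held 44.2%, class III HD-ZIP regulators (miR165, miR166) 21.3%, and regulators of the auxin pathway 15.2%. These 3 classes reached 80.7%. With the reads of all rows of a family summed instead, class III HD-ZIP regulators held 40.05% and auxin regulators 9.22%, and without miR157 the SPL share was 26.3%. The SPL share counts miR156 by miR156d, which was 2.25-fold above miR156a of the same mature sequence. Nearly all of the auxin class was miR167, since miR160, which targets ARF10, ARF16 and ARF17, had 126 reads in its top member and miR393, which targets the TIR1 and AFB auxin receptors, had 3. The 14 families placed in transcription factor classes, with miR160 and miR167 for their ARF targets, held 83.0% in all. Left out of these were miR828, counted as a tasiRNA trigger although it also targets MYB factors, and all unclassed families.

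The families that act back on the small RNA machinery held 5.27%. Of these, miR168 (AGO1 as target) had 129349 reads, miR403 (AGO2) 9351 and miR162 (DCL1) 2050. The regulator of AGO1 therefore had the highest count of the 3 and that of DCL1 the lowest. The triggers of tasiRNAs, secondary small RNAs cut from TAS transcripts, held 0.809%. miR390, which acts with AGO7 on TAS3, had 15454 reads and miR173, which acts on TAS1 and TAS2, had 6143, while miR828, the trigger of TAS4, had 0. The 2 families placed here as regulators of pentatricopeptide repeat genes held 1.20% (miR161 with 31897 reads and miR400 with 40), and AP2-like regulators 1.19%. Summed over all rows, these shares were 3.08% for the small RNA machinery, 0.420% for tasiRNA triggers, 0.425% for pentatricopeptide repeat regulators and 0.737% for AP2-like regulators.

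Other developmental regulators were less abundant. miR396, which limits the growth-regulating factors, held 0.500%, and its rows miR396a and miR396b, which differ by G21U, had 13338 and 13059 reads. miR164, which sets organ boundaries through CUC1 and CUC2, held 0.386%. The class of MYB and TCP regulators held 0.139%, with 3569 reads for miR159a, which targets MYB33 and MYB65, and 154 for miR319a, which targets TCP factors of leaf growth. miR169 (NF-YA subunits) held 0.0352% with 941 reads in miR169d and miR169e. In the GRAS class, miR171a had 366 reads and miR170 had 17. Summed over all rows, miR396 held 0.299%, miR164 0.252%, the MYB and TCP class 0.0703%, the GRAS class 0.00529% and miR169 0.0609%. With each distinct mature sequence counted once, miR396 held 0.941%, the MYB and TCP class 0.221% and miR169 0.0643%.

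Regulators of nutrient responses had few reads. The copper class held 0.0267%, with 482 reads for miR408 (plantacyanin and laccases), 144 for miR397b (laccases), 69 for miR857 (LAC7) and 19 for miR398b, which targets the superoxide dismutases CSD1 and CSD2. The phosphate class held 0.0221%, with 492 reads for miR399b, which targets PHO2, 62 for miR827 (NLA), 32 for miR2111a and 4 for miR778. miR395, which targets ATP sulfurylases and a sulfate transporter, had 37 reads or 0.00139%. Each of these 3 classes was below 0.1%, also when summed over all rows, at 0.00966% for copper, 0.0138% for phosphate and 0.00211% for sulfate. Regulators of chromatin and DNA methylation genes had 302 reads in miR402, 102 in miR823 and 33 in miR773. miR778, which targets SUVH6, also belongs with them but was counted under phosphate alone. miR163, which targets methyltransferases of small molecules, had 473 reads. Outside the classes, 151 families held 9.63%, of which miR158 made up 75.1%.

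The families with low numbers, which were named first, held almost all of the reads. The 37 families from miR156 to miR408 had a median of 492 reads over their 109 guide rows and 99.02% of the family reads. The 9 rows from miR413 to miR426, which were proposed by computation, were all at 0. The 88 rows from miR771 to miR870 had a median of 12.5 reads and a share of 0.416%, and the 106 rows from miR1886 upward a median of 8 reads and a share of 0.559%. Within this last group miR5026 stood apart with 10024 of the 14924 reads. Of all guide rows from miR771 upward, it was the only one above 2708 reads, the count of miR780.2. Precursors listed with both a 5p and a 3p row occur only from miR447 upward. The medians of the higher numbers therefore include opposite strands, and that from miR156 to miR408 has no such pairs.

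**Figure D2:**
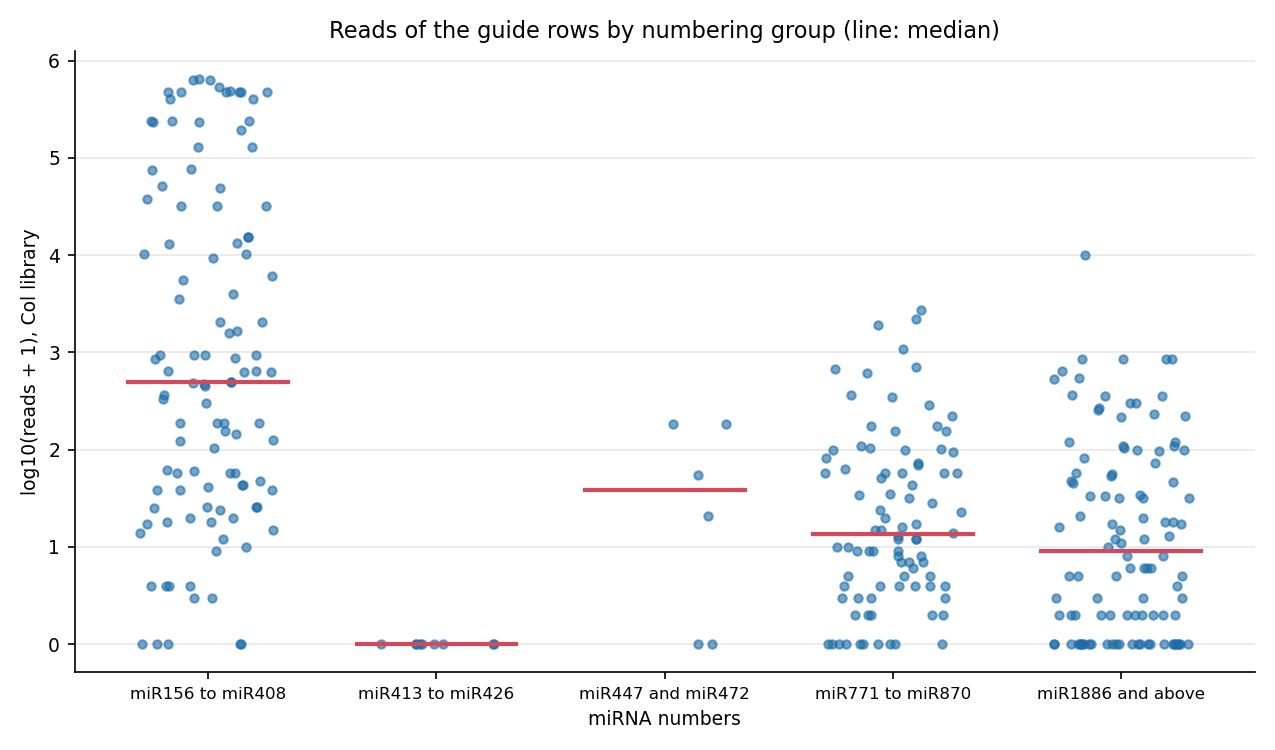
Reads of each guide row in the Col library as log10 of the reads plus 1, by group of miRNA numbers, with 1 point per row and a red line at the group median. The median is 492 reads from miR156 to miR408, 0 from miR413 to miR426, 12.5 from miR771 to miR870 and 8 from miR1886 upward. From miR447 upward the rows include both strands of precursors listed as 5p and 3p.

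Members of 1 family were often far apart. In 55 families with at least 2 guide rows and at least 10 reads in the highest, 38 (69.1%) had a highest row at least 2-fold above the lowest. The gap was at least 10-fold in 24 families and at least 100-fold in 5, and 11 families had rows within 10%. In 20 of the 55 families the highest and lowest rows were the arms of 1 hairpin or neighbouring miRNAs of 1 hairpin, and 18 of these were 2-fold apart. Among the 35 families whose extremes came from different hairpins, 20 were (57.1%). The largest gap was in miR156, where miR156d had 532299 reads and miR156i had 0, so that miR156d was at least 177433-fold higher when 3 reads are taken as the limit.

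The 10 miR156 rows carried 5 sequences, shown here because their counts followed the sequence except in miR156d.
miR156a: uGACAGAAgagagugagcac
miR156h: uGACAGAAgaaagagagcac
miR156j: uGACAGAAgagagagagcac
miR156g: cGACAGAAgagagugagcac
miR156i: uGACAGAAgagagagagcag
miR156a to miR156f share the first of these. miR156h, which differs from miR156a by G11A and U14A, had 52026 reads, 4.56-fold fewer than miR156a (4.51 to 4.60). miR156j, with U14A, had 854 reads, and miR156g, with U1C, had 445. miR156i differs from miR156j by C20G and was at 0. All 5 sequences have the same seed.

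In miR167, rows also separated by sequence. miR167b had 405006 reads and miR167a 404544. miR167d, which is 22 nt long and differs in its last bases, had 4015, and miR167c, which has another seed, had 56. The gap between miR167b and miR167c was 7232-fold (5569 to 9574). In miR158, miR158b differs from miR158a by its first base (U1C) and had 624 reads against 193012, a gap of 309-fold (286 to 335). These rows come from hairpins on different chromosomes, and the part of the base change in the gap was not tested. miR157d, which lacks the first U of the other miR157 rows and so has the seed of miR156, had 48802 reads against 648158 in miR157c.

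Among the AP2-like regulators, miR172a and miR172b had 31720 reads each, miR172c 646, miR172d 645 and miR172e 328. miR172c differs from miR172a by U21G and miR172e by A1G. The highest exceeded the lowest 96.7-fold (86.7 to 108). In miR399, miR399b and miR399c had 492 reads each, miR399f 61, miR399a 23, miR399d 17 and miR399e 8, a gap of 61.5-fold (31.0 to 143). In miR164, miR164c differs from miR164a by A21G and had 1654 reads, while miR164a had 10264 and miR164b 10315.

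Where neighbouring mature miRNAs were listed from 1 precursor, most were also far apart. miR161.1 and miR161.2 overlap on chromosome 1, at chr1:17825731-17825751 and chr1:17825722-17825742, and had 31897 and 5608 reads, a ratio of 5.69 (5.53 to 5.85). miR869.2 had 667 reads and miR869.1 had 6. miR1886.2 had 222 reads and its overlapping neighbour miR1886.1 had 17. miR1886.3, at chr2:15611953-15611973, had 1 read, but its sequence is nearly complementary to that of miR1886.2, as for an opposite arm. miR829.1 had 172 reads and miR829.2 had 1. The ratio of miR869.2 to miR869.1 was 111 (50.8 to 304). miR447a had 182 reads and miR447a.2, from the same hairpin, had 54. The smallest gap of this kind was in miR780, with 2708 reads in miR780.2 and 1918 in miR780.1, a ratio of 1.41 (1.331 to 1.498). Between hairpins of miR447, miR447a and miR447b had 182 reads each, and both rows of miR447c were at 0, at least 60.7-fold lower than miR447a.

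**Figure D3:**
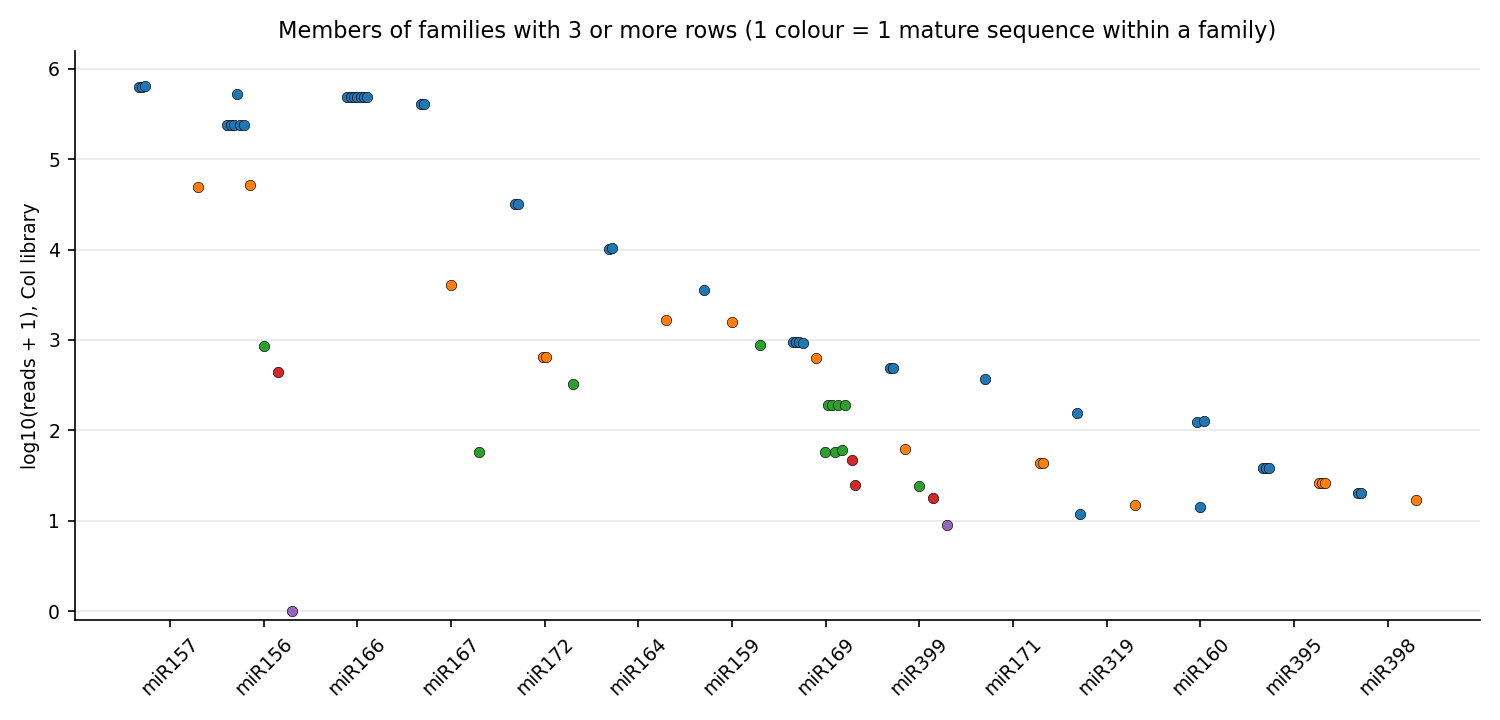
Reads of each guide row, as log10 of the reads plus 1, in families of the target classes with 3 or more rows and at least 10 reads, with 1 colour per mature sequence within a family. Rows of 1 colour mostly coincide, as the 7 rows of miR166 do between 481629 and 493332 reads, and split in miR156, miR169, miR160 and miR319.

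Rows with exactly the same mature sequence were compared next, since the mature miRNA alone cannot tell them apart. Intervals of their ratios treat both rows as separate counts, so they do not measure counting error where rows repeat the same reads. There were 30 such groups with at least 10 reads, holding 88 rows. Counts were equal in 10 groups and within 5% in 21. The 7 miR166 rows had 481629 to 493332 reads, the highest 1.02-fold above the lowest, and miR168a and miR168b had 129349 and 129158. Only 6 groups (20%) were at least 2-fold apart, and these were miR319, miR160, miR3932, a group of miR169, miR5635 and miR156.

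miR156d had 532299 reads, whereas miR156a and miR156c had 237043 each, miR156b 237154, and miR156e and miR156f 236707 each. The ratio of miR156d to miR156a was 2.25 (2.23 to 2.26). It was 1.95 (1.94 to 1.96) in cdf2 and 1.11 (1.07 to 1.14) in dcl1-9, so that miR156d was the higher row in each of the 3 libraries. The genomic windows below give these mature sequences as DNA with 3 bases on each side in capitals.
miR156a: AACtgacagaagagagtgagcacACA
miR156b: AACtgacagaagagagtgagcacATG
miR156d: AGTtgacagaagagagtgagcacACA
miR156e: AGGtgacagaagagagtgagcacACA
The base just before the mature sequence is T in miR156d, C in miR156a, miR156b and miR156c, and G in miR156e and miR156f. A T also precedes the mature sequences of miR156h (52026 reads) and miR156j (854 reads), which differ from that of miR156d. Counts of rows with C (237043 to 237154) and with G (236707) were within 5% of each other.

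A similar split appeared in miR169. Its rows h to n share 1 mature sequence, of which 3 windows are shown because each stands for a different base just after it.
miR169i: TGGtagccaaggatgacttgcctgACT
miR169h: TGGtagccaaggatgacttgcctgCGT
miR169m: TGGtagccaaggatgacttgcctgTTT
miR169i, miR169j, miR169l and miR169n, with A after the mature sequence, had 189 reads each. miR169h and miR169k, with C, had 56 each, and miR169m, with T, had 59. The ratio of miR169i to miR169h was 3.38 (2.49 to 4.63) in Col and 3.45 (2.43 to 4.99) in cdf2. miR169i to miR169n lie close together on chromosome 3, between 9872106 and 9878710, and miR169h lies on chromosome 1.

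miR319a and miR160c gave the widest ratios. miR319a had 154 reads and miR319b, with the same mature sequence, 11, a ratio of 14.0 (7.61 to 28.6), which was 2.53 (1.95 to 3.30) in cdf2. miR160a had 121 reads and miR160c 126, against 13 in miR160b. The ratio of miR160c to miR160b was 9.69 (5.47 to 18.7) in Col and 1.67 (1.22 to 2.32) in cdf2. In both families the base before the mature sequence differs, A in miR319a against C in miR319b, and A in miR160a and miR160c against G in miR160b. The intervals of the 2 libraries did not overlap, but they treat rows of 1 mature sequence as separate counts. How far such ratios vary between libraries of 1 genotype is not known.

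Over all pairs of rows with 1 mature sequence, 62 pairs had a different base directly before or after it, and 20 of these (32.3%) were at least 2-fold apart. Of the 58 pairs with the same base on both sides, 2 (3.45%) were, in miR3932 (56 and 7 reads) and miR5635 (542 and 216 reads). In contrast, 39 of the 62 pairs with a different base were still within 5%, among them pairs of miR166. With 3 bases on each side, 21 of 89 pairs with different flanks (23.6%) and 1 of 31 pairs with the same flanks (3.23%) were 2-fold apart. The pairs share rows, and the 20 unequal pairs came from 4 families, so these shares are a description. How reads were assigned to rows is not given in the sources used here, and its part in these gaps was not tested.

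**Figure D4:**
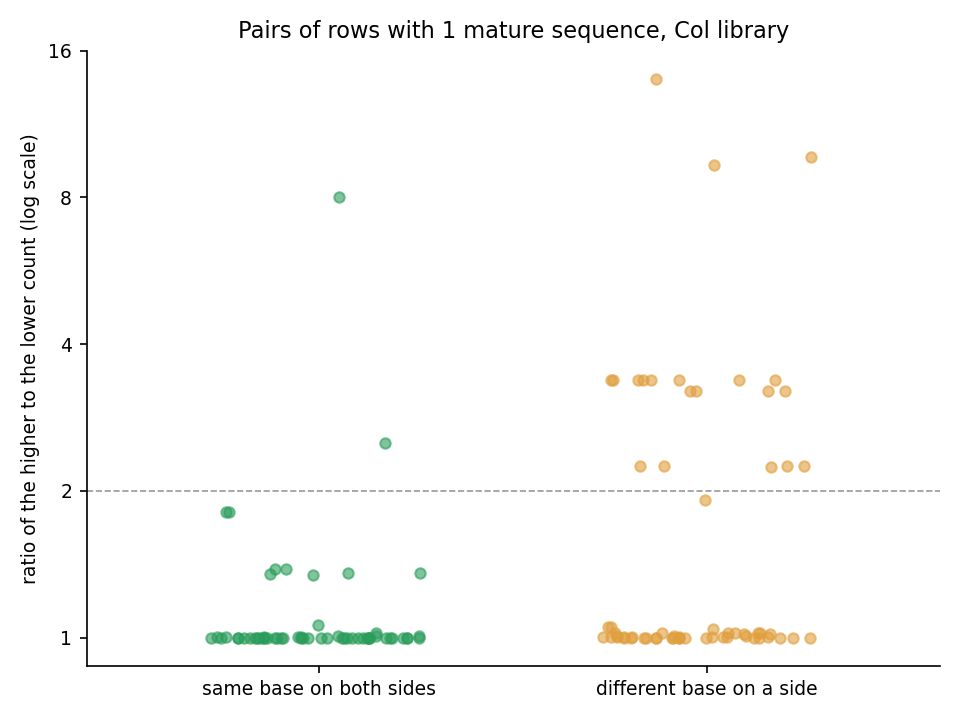
Ratio of the higher to the lower read count, on a log axis, for each of the 120 pairs of rows with 1 mature sequence in the Col library, with the same base on both sides of it (58 pairs) or a different base on at least 1 side (62 pairs). Above the dashed line at 2-fold lie 2 pairs with the same bases and 20 with a different base.

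Star rows had fewer than 10 reads except in 3 hairpins. The 10 star rows added up to 2050 reads. In 7 pairs with at least 10 reads in both rows together, 1 star (14.3%) exceeded its guide. The 3 star strands with at least 100 reads are shown, with the guide of the one that was exceeded.
miR172b*: gCAGCACCauuaagauucac
miR169g*: uCCGGCAAguugaccuuggcu
miR841b*: cAAUUUCUagugggucguauu
miR841b: uACGAGCCacuggaaacugaa
miR841b* had 308 reads and miR841b 99, so that the star made up 75.7% (71.2% to 79.8%) of the reads from both strands. It was 3.11-fold (2.47 to 3.94) above the guide. The star was also the higher strand in cdf2, with 197 reads against 44 or 81.7% (76.3% to 86.4%), and in dcl1-9 4 reads were counted against 1.

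miR169g* had 441 reads against 934 for miR169g, 32.1% (29.6% to 34.6%) of both strands, and 31.8% (29.6% to 34.0%) in cdf2. The guide row shares its mature sequence with miR169d, miR169e and miR169f, so the star stands beside a guide count that may stem from any of 4 hairpins. miR172b* had the most reads of any star, 1275, but beside 31720 reads of its guide this was only 3.86% (3.66% to 4.08%). In cdf2 its share was 8.66% (8.39% to 8.94%), with 3547 star and 37394 guide reads. The guide sequence is shared with miR172a, and the star sequence is also that of the 5p arm of miR172e, which is not listed as a row, so neither count belongs to miR172b alone.

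The other stars were near the limit of counting. miR2111a* had 8 reads and miR2111b* 4, each against 32 of the guide, miR830* had 7 against 8, and miR844* 6 against 8. miR3434* had 1 read and its guide 0, and miR773b* and miR774b* were at 0 with their guides. For miR830* and miR844* the interval of the star share included 50%, so the higher strand was not detectable at this depth.

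Another 19 hairpins had rows for the 5p and 3p arms in place of a star. In 14 of them with at least 10 reads, the 5p arm was higher in 6 and the 3p arm in 8, and the lower arm was under 10% of both in 10. miR863 was the most one-sided of those with reads in both arms, with 707 reads in the 3p row and 6 in the 5p row, 0.842% (0.309% to 1.82%) for the lower arm. miR3440b had 109 reads in the 3p row and 0 in the 5p row. At the other end, miR5648 had 33 and 95 reads, the lower arm holding 25.8% (18.5% to 34.3%), and in miR862, with 8 and 11, the interval included 50%.

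**Figure D5:**
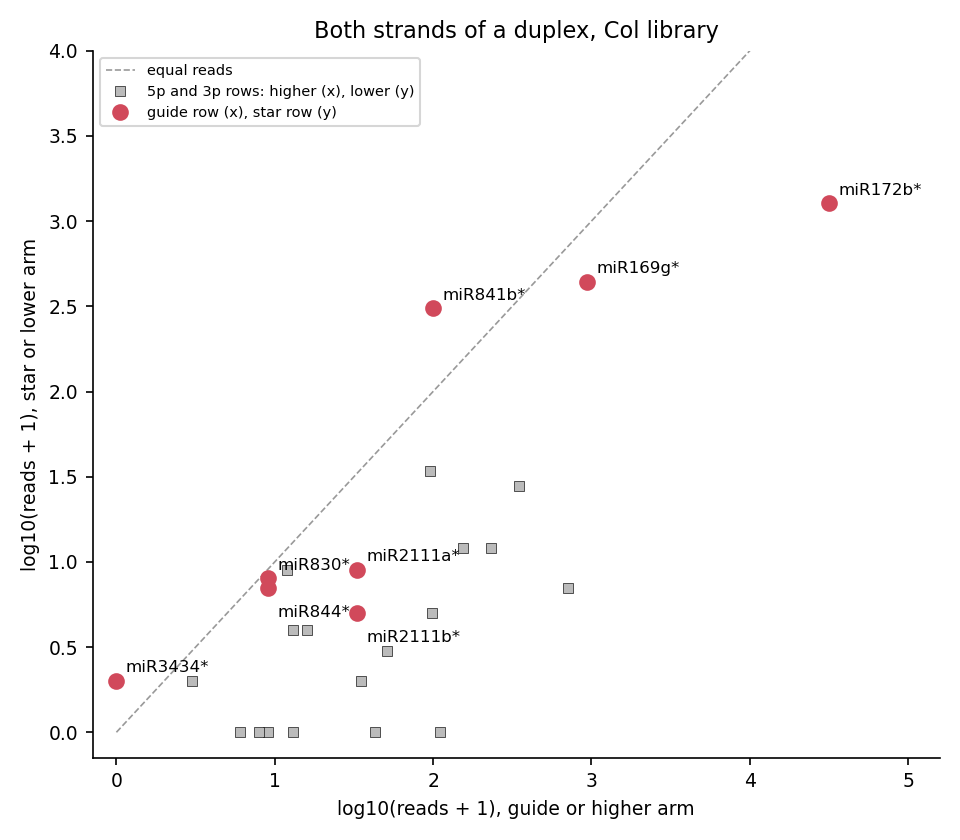
Reads of the star row against its guide row (red circles, named) and of the lower against the higher arm for hairpins listed as 5p and 3p (grey squares), as log10 of the reads plus 1 in the Col library, with a dashed line at equal reads. miR841b*, with 308 reads against 99, and miR3434*, with 1 against 0, lie above the line.

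Of the 328 rows, 55 (16.8%) had 0 reads, which allows up to 3 reads each or 0.000112% of the family reads. A further 38 rows had 1 to 3 reads. The rows at 0 covered 37 families completely, and 17 rows belonged to families with reads in another guide row. In cdf2, 44 of the 55 were also at 0, and the 11 with reads had at most 4. In dcl1-9, 49 of the 55 were listed, and 5 had reads, at most 2 each. No row at 0 in Col was thus above 4 reads where another library listed it.

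Of the 55 rows at 0, 4 belonged to the target classes. They were miR156i, miR773b, miR773b* and miR828. miR773, the other guide row of its family, had 33 reads. miR828 was the only family of the 36 in target classes without a read, against 37 of all 187 families. It was at 0 in cdf2 and dcl1-9 too. From miR156 to miR408, the rows at 0 were miR156i, miR401, miR405b, miR406 and miR407. Low counts also marked some well-known regulators, since miR393a and miR393b had 3 reads each and miR778 had 4.

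Sequence features that played no part in choosing the library were counted over the 243 distinct mature sequences of guide rows found in RefSeq, with the reads of the highest row for each. A first base U was found in 162 sequences (66.7%), which held 97.7% of the reads. A was the first base of 50 sequences (20.6%) with 2.16% of the reads, led by miR172a and including miR390 and miR5026. C was the first base of 19 sequences and G of 12, with 0.0752% and 0.0280% of the reads. The 5′ U was therefore commoner by reads than by sequences.

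Mature miRNAs of 21 nt made up 191 of the 243 sequences and 69.9% of the reads. The 18 sequences of 20 nt held 29.6%, led by miR156d and including miR158a, and their median of 403.5 reads was above the 16 of the 21-nt sequences. The 27 sequences of 22 nt, the length of miR173, held 0.430%, and the 6 of 24 nt, among them miR163, held 0.0363%. Grouped by seed, the sequences had 210 different seeds, of which 8 occurred in more than 1 family. The seed of miR157a to miR157c held 23.1% of the reads, that of miR156 and miR157d 22.6%, that of miR165 and miR166 20.3% and that of miR167 14.6%. Joined by seed, miR156 with miR157d and miR165 with miR166 thus came close to the reads of the leading miR157 seed.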

How the data were processed

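Small RNAs of 1 Col, 1 cdf2 and 1 dcl1-9 library were isolated with the mirVana kit and sequenced on the Illumina platform. After adaptor trimming, the authors used Bowtie to place reads on miRBase hairpins (release 15) and compared them with release 16. The count file they deposited holds the raw read count of each miRNA. The build named for them is TAIR10. How reads with several matching miRNAs were counted is not given in the sources used here. The authors also deposited a table per mutant that repeats the Col counts, with a library total of 14073145 reads (what it counts is not stated), RPM values, fold changes and p-values. Of these, only the Col counts and the total were used, and 0 columns were left unmapped.

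Counts were used without normalization. A family is named by its number, and its value is the guide row with most reads. Families with at least 10 reads in the highest row were compared within. Ratios carry exact conditional intervals at 95%, which treat the 2 rows as separate counts. In counts of unequal families, a lowest row at 3 reads or fewer was set to 3 reads, and a ratio against a row at 0 is written as at least that fold. Of 328 rows, 313 were matched by name to RefSeq mature miRNAs on TAIR10.1, and sequences and flanks were read there. The files carry no coordinates. Where the annotation gives 2 arms for a row, the arm came from later names with the same Col count in the authors' dcl1-9 table or from the earlier accession. Target classes come from general knowledge of plant miRNAs. They do not hold every known target, so a family without a class may still have known targets. The members and lists were chosen with earlier results of these data known. miRNAs were named as the 10 leading families, the families of target classes, the 10 widest families with at least 100 reads in the highest row, stars with at least 100 reads or above their guide, and rows at 0 in target classes. The remaining names, such as miR5026, miR780, miR822, miR863, miR5648 and miR862, were chosen after their values were seen. The flank comparison and the 5% limit for near-equal rows were added after seeing the data. The calculations were tested on simulated data. Python 3.11.15, scipy 1.17.1 and matplotlib 3.10.9 were used.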

Additional observations from a re-analysis of the deposited data

Results flagged for a closer look

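The authors' dcl1-9 table gives Col counts for 7 names above 3 reads that the Col count file used here does not list, and these stood outside every comparison. They were miR5996 with 732 reads, miR173-3p with 165, miR5014b with 58, miR5997 with 46, miR5654-3p with 28, miR5999 with 19 and miR5995b with 18. Each is above the limit of 3 reads set for a count of 0. miR5996 would have ranked among the 30 most abundant families. miR173-3p is the opposite strand of the tasiRNA trigger miR173 and made up 2.62% (2.24% to 3.04%) of the reads from both strands. For miR5654 the 3p strand held 84.8% of both strands, against 5 reads in the row miR5654.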

How the results depend on the processing

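The number of families holding 50%, 90% or 99% of the reads stayed within 1.5 times of its value under every alternative run. The share of the most abundant family was 38.3% (then miR166) with all members summed, 24.9% with each distinct mature sequence counted once, 31.5% with related families joined (miR156 with miR157), 26.3% without miR157, and 4.61% of the authors' library total. The share of the 10 most abundant families was 98.3%, 96.0%, 97.0%, 96.3% and 18.3% in the same order. Whether summing counts a read once or several times depends on the assignment rule, which is not known. Class shares moved beyond counting error in 80 of 102 values, and, apart from the library total, by over 1.5 times in 21 of 85. SPL regulators ranged from 26.3% without miR157 to 45.7% with distinct sequences, and class III HD-ZIP regulators reached 40.05% with members summed. Families with unequal members numbered 24 at 10-fold, 20 when the extremes had to come from different hairpins (chosen after seeing the data) and 6 among rows with 1 mature sequence. Stars above their guide numbered 2 with no minimum, the second being miR3434* with 1 read. Rows near zero numbered 93 at 3 reads or fewer and 125 below 10. No paired analysis was possible because each genotype had 1 library, and none could be left out. The depth limits comparisons of rows below about 10 reads, and the spread between plants of 1 genotype is not known.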
